A study of Homo sapiens with 8 samples.

Results

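The RAB, ARF, ARL and SAR1 genes encode the small GTPases that direct membrane traffic, and 56 of them were measured in MRC5 cells, diploid human lung fibroblasts, exposed to 8-oxoguanine, the free oxidised form of the DNA base guanine. Members were taken by a rule on gene names, chosen with earlier results of these data known. A gene was taken when the only symbol of its probe set was RAB with digits and an optional final letter, ARF with 1 digit, ARL with a digit, or SAR1A or SAR1B. This gave 42 RAB, 4 ARF, 8 ARL and 2 SAR1 genes out of 11963 named genes, and of the 8 ARL names 3 (ARL2BP, ARL6IP4 and ARL6IP5) are partner proteins rather than GTPases. All 56 were on the 6 h arrays and 45 on the 12 h arrays. Another 7 probe sets at 6 h and 3 at 12 h carried several symbols and were left out.

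Cells received 10 µM 8-oxoguanine or solvent alone (mock), and total RNA was read on 8 single-colour arrays of a pair of types. At 6 h there was 1 array of treated and 1 of mock cells. At 12 h there were 3 of each, which the labels call technical replicates of extracts, so p-values cover only how much these extracts varied, and all of that may be technical. Whether the extracts of a group came from more than 1 culture is not stated, so the comparison may rest on 1 culture of each kind. All groups came from the same fibroblast line in serum-containing medium, and each time was compared with its own mock.

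These GTPases switch between an inactive form bound to GDP and an active form bound to GTP. RAB proteins carry lipid tails at their carboxyl end, are extracted from and returned to membranes by GDI, and in the GTP form recruit tethers, motors and sorting proteins that give each compartment its identity. ARF and SAR1 proteins insert an amino-terminal helix into the membrane and load coats: ARF loads COPI and clathrin adaptors at the Golgi, and SAR1 loads COPII where cargo leaves the endoplasmic reticulum. In fibroblasts these routes carry procollagen and other matrix proteins outwards and return integrins to the cell surface.

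The promoters of the 5 members that passed the test at 12 h are shown because these genes moved, and because they differ in their GC content. Each window is the 250 bases before the gene's start in RefSeq, assembly GRCh38.p14, read 5′ to 3′ on the gene's strand. Capitals mark matches to the GC box GGGCGG and the CCAAT box CCAAT on either strand, so that CCGCCC and ATTGG are the same motifs read on the other strand.
RAB9A, chrX:13688878-13689127, plus strand: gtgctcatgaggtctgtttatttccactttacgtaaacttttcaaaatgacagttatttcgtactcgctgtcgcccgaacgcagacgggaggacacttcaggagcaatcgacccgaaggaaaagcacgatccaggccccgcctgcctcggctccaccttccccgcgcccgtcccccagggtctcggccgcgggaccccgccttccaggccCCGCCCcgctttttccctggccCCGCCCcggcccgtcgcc
RAB29, chr1:205775483-205775732, minus strand: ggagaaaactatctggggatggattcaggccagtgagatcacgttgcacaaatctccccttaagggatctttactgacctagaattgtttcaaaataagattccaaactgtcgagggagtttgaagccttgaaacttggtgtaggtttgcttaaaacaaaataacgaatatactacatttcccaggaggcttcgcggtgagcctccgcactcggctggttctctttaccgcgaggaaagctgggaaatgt
RAB13, chr1:153986340-153986589, minus strand: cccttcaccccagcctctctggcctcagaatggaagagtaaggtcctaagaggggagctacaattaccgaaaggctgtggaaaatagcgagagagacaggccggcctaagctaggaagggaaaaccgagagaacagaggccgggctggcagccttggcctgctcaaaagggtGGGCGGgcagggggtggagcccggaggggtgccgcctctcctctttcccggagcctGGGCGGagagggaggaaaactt
RAB5C, chr17:42154990-42155239, minus strand: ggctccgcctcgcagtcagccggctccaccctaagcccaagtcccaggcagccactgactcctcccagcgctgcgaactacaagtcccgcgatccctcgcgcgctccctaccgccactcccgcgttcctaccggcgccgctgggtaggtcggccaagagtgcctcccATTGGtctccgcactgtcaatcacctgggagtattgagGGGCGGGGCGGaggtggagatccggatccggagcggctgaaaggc
RAB14, chr9:121201870-121202119, minus strand: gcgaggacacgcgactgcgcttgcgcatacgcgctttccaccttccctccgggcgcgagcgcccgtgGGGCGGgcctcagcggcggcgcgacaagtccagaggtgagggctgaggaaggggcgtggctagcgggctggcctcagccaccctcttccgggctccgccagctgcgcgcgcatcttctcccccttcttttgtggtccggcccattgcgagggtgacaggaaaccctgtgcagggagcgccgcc

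The window of RAB29 was 45.2% G or C and held neither motif, and those of the other 4 were 61.2% to 70.8% G or C and held a GC box. RAB5C held 2 overlapping GC boxes and the only CCAAT box among the 5. Promoter windows were matched for 44 of the 56 genes. A GC box stood in 84.1% of these 44 against 42.3% of 27305 RefSeq promoter windows of the same length, and the median GC content was 66% against 58%. The 27305 windows were not limited to genes on the arrays or to expressed genes, so these are not like sets. A CCAAT box stood in 36.4% against 33.0%, and the E-box CACGTG in 13.6% against 6.49%. The motif TGATGNAAT, bound by ATF4 with a C/EBP partner, was in none of the 44 and in 0.916% of all. Of the members kept at 12 h that did not pass the test, 24 of 27 with a window held a GC box, against 4 of the 5 that passed. These are matches of letters, not measured binding.

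At 12 h the largest change among the members tested was a fall of RAB5C, an early endosome GTPase, to 0.585 of the mock level. RAB14, which acts between the Golgi and recycling endosomes, also fell. RAB9A, which returns receptors from late endosomes to the trans-Golgi network, RAB29, a trans-Golgi network GTPase that recruits the kinase LRRK2, and RAB13, which delivers cargo to the cell surface and to junctions, rose. Probe sets were tested when their mean log2 signal was at or above the 40th percentile of the array (a signal of 93.9), which kept 38 of the 45 members. Of these 38, 3 rose, 2 fell and 33 did not pass an adjusted p of 0.05 in limma's moderated test. The members called were 13.2% of those kept. Of all 5248 probe sets 13.2% passed (6.59% higher and 6.65% lower), so the members' share is that of the background and no result about them as a group. The median log2 difference was 0.02 over the 38 and 0.01 over all probe sets. In bulk RNA, fewer cells of a type and less RNA per cell cannot be told apart.

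**Figure D1:**
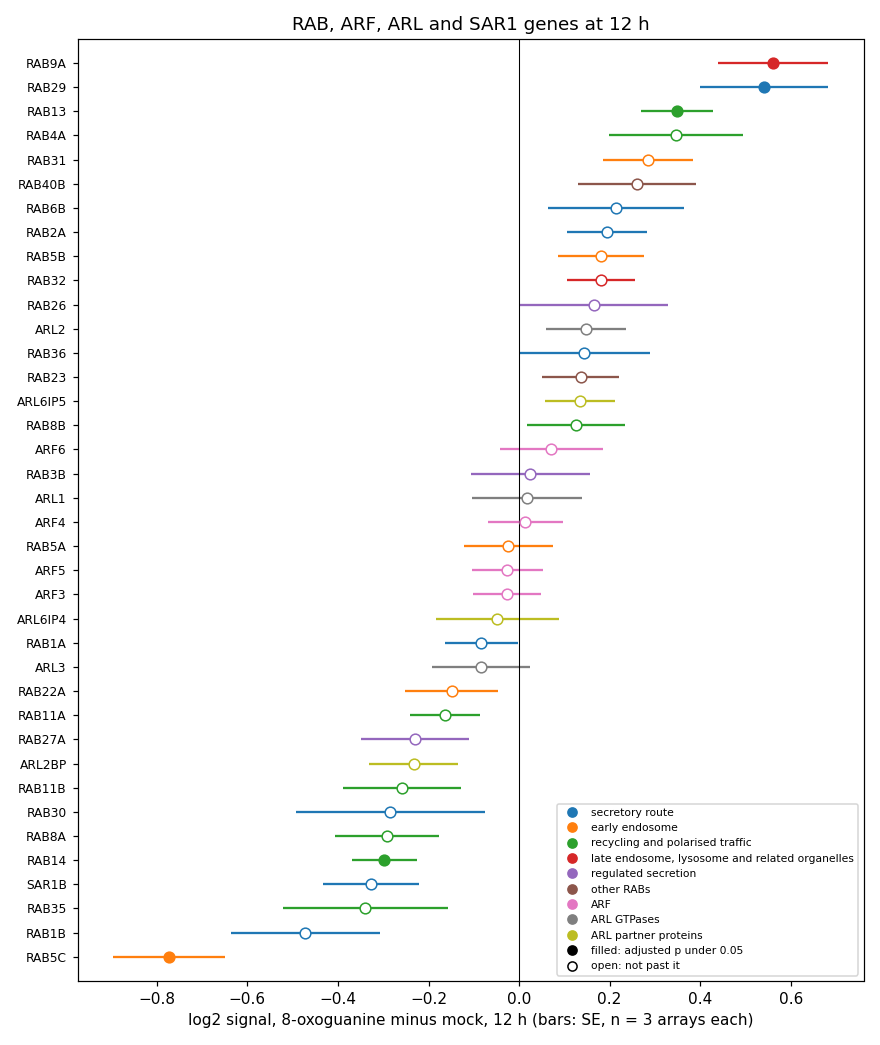
Difference of log2 signal between 8-oxoguanine and mock cells at 12 h (horizontal axis, log2 units) for the 38 members kept by the signal filter, 1 per line, coloured by role. Points are differences of means of 3 arrays each and bars are SE. Filled points passed an adjusted p of 0.05 (RAB9A, RAB29 and RAB13 to the right, RAB14 and RAB5C to the left), and all others but RAB1B lie within 0.35 of 0.

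The early endosome GTPases did not move together. RAB5C had signals of 818, 816 and 735 on the treated arrays, against 1297, 1640 and 1151 on the mock arrays. All 3 treated arrays lay below all 3 mock arrays, and the mock arrays were the more scattered. The log2 difference was -0.77 (SE 0.12, adjusted p = 0.00365). RAB5A, an isoform that with EEA1 drives fusion of early endosomes, had 1972, 1818 and 1667 on treated and 1966, 1623 and 1967 on mock arrays. These groups overlapped, with a log2 difference of -0.02 (SE 0.10, adjusted p = 0.908), and the sign turned with quantile normalization. RAB5B had 672, 747 and 653 on treated arrays and 586, 661 and 581 on mock arrays, which overlapped (0.18, SE 0.09, adjusted p = 0.244). RAB31, which carries cargo between the trans-Golgi network and endosomes, had 598, 636 and 538 on treated and 505, 497 and 451 on mock arrays. The groups did not overlap, but the difference of 0.28 (SE 0.10) did not pass (adjusted p = 0.0905). RAB22A, a regulator of early endosome sorting, had -0.15 (SE 0.10).

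**Figure D2:**
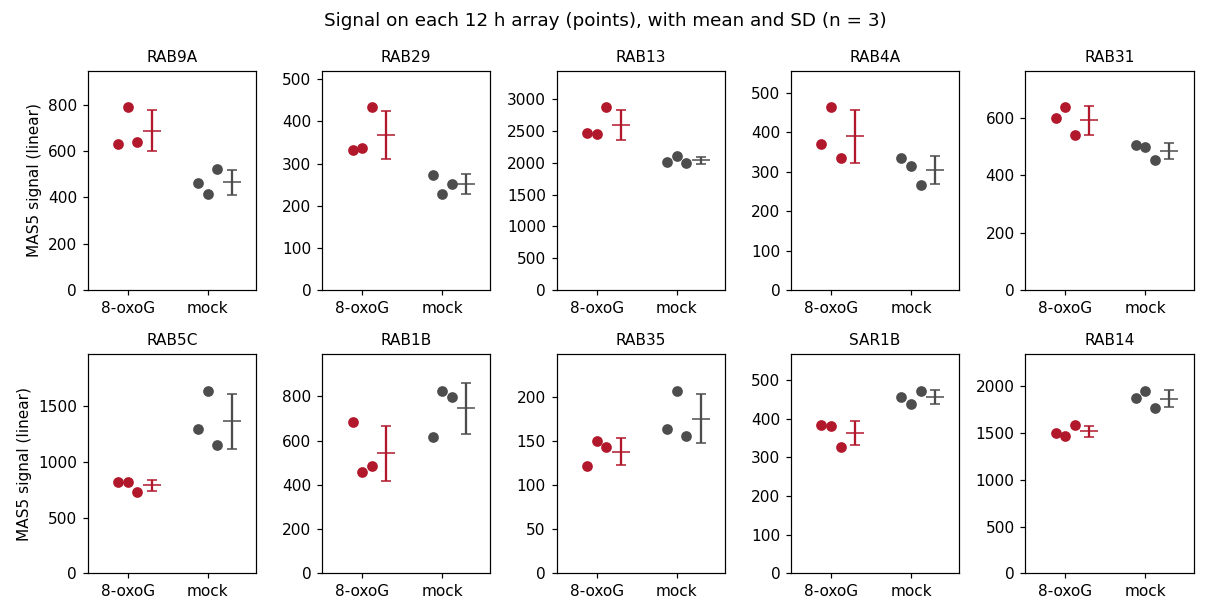
MAS5 signal (vertical axes, linear scale from 0) on each 12 h array, 8-oxoguanine at the left and mock at the right of each panel. Shown are the 5 members with the highest and the 5 with the lowest log2 differences among those kept by the signal filter. Points are arrays and bars are mean and SD (n = 3). The groups overlap in RAB4A and RAB1B and are apart in the other 8.

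The isoforms were also set against each other within each array, which a single scaling factor per array cannot change. The log2 signal of RAB5C minus that of RAB5B was 0.28, 0.13 and 0.17 on the treated arrays, against 1.15, 1.31 and 0.99 on the mock arrays. Every treated array thus lay below every mock array, and the difference of these differences was -0.95 (SE 0.10). For RAB5C minus RAB5A it was -0.75 (SE 0.24), again with no overlap, although mock replicate 2 lay apart at 0.01 from mock replicates 1 and 3 at -0.60 and -0.77. RAB8A minus RAB8B, a pair that brings vesicles to the plasma membrane and cilium, gave -0.42 (SE 0.14), and RAB11A minus RAB11B, the recycling endosome pair, gave 0.09 (SE 0.05). RAB1B minus RAB1A (-0.39, SE 0.23), RAB5B minus RAB5A (0.20, SE 0.17) and ARF4 minus ARF5 (0.04, SE 0.13) overlapped. With 3 arrays against 3 the smallest p an exact two-sided permutation test allows is 0.1, which the 4 pairs without overlap reached (0.175 after adjustment over the 7 pairs), so none could pass.

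**Figure D3:**
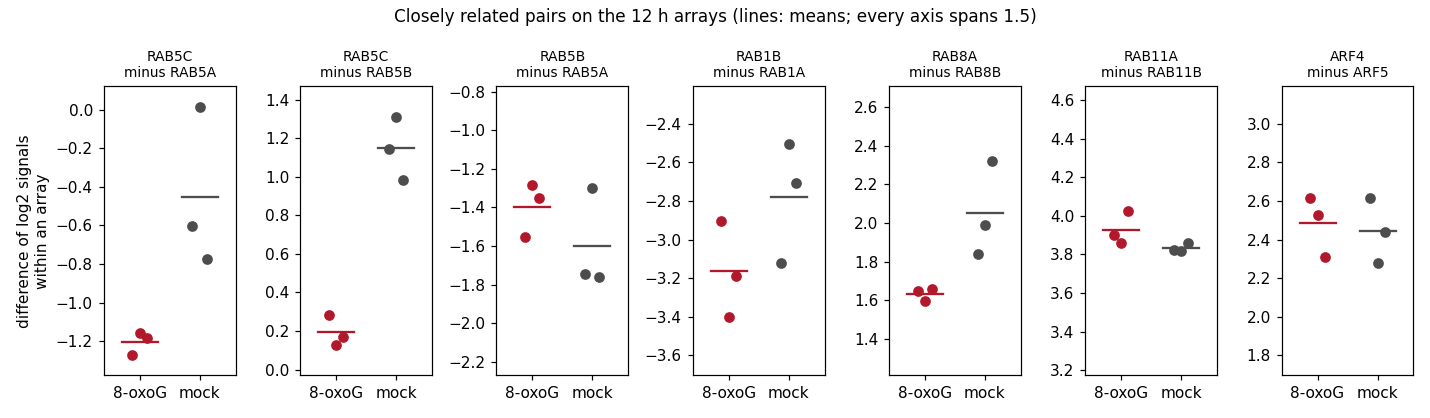
Difference of log2 signals of closely related members within each 12 h array (vertical axes, log2 units, each spanning 1.5), with 8-oxoguanine arrays at the left and mock arrays at the right. Points are arrays and lines are means of 3. RAB5C minus RAB5B shows the widest gap, with treated arrays between 0.13 and 0.28 and mock arrays between 0.99 and 1.31.

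Among the GTPases of recycling and polarised traffic, RAB13 and RAB14 passed in opposite directions. RAB13 had signals of 2472, 2454 and 2869 on treated arrays, against 2010, 2100 and 1997 on mock arrays, with all treated arrays above all mock arrays (0.35, SE 0.08, adjusted p = 0.0179). RAB14 had 1505, 1469 and 1587 on treated arrays, against 1881, 1956 and 1773 on mock arrays, with no overlap (-0.30, SE 0.07, adjusted p = 0.0237). RAB4A, which speeds return from early endosomes, was read by a pair of probe sets of like brightness. The brighter had 371, 464 and 335 on treated and 335, 314 and 267 on mock arrays, which overlapped (0.35, SE 0.15, adjusted p = 0.154). The other had 354, 376 and 286 on treated and 231, 164 and 258 on mock arrays, which did not overlap (0.66, SE 0.19, adjusted p = 0.0457). The 2 probe sets of RAB4A thus agreed in sign and not in call. RAB35, of the fast recycling route, had 121, 149 and 143 on treated arrays, against 163, 207 and 156 on mock arrays, just without overlap (-0.34, SE 0.18, adjusted p = 0.258). RAB8A had -0.29 (SE 0.11), RAB8B 0.13 (SE 0.11), RAB11A -0.16 (SE 0.08, means 2919 on treated and 3268 on mock arrays) and RAB11B -0.26 (SE 0.13), and none of these passed. RAB8A passed in 1 of 14 alternative analyses, the one without mock replicate 1, the mock array that overlapped the treated ones (-0.41, adjusted p = 0.0403). Over all choices of the array left out, its log2 difference ran from -0.41 to -0.19 and its adjusted p from 0.0403 to 0.337.

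On late endosomes and lysosome-related organelles, RAB9A had signals of 632, 788 and 641 on treated arrays, against 461, 415 and 521 on mock arrays. The groups were apart, and the log2 difference was 0.56 (SE 0.12, adjusted p = 0.0151). RAB32, which serves mitochondria and the biogenesis of melanosomes and other lysosome-related organelles, had 1524, 1463 and 1422 on treated and 1211, 1348 and 1336 on mock arrays. It too showed no overlap, but 0.18 (SE 0.07) did not pass (adjusted p = 0.146). RAB38, its close relative, was below the filter.

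Of the 8 members kept that serve the secretory route through the endoplasmic reticulum and the Golgi, RAB29 passed. It had signals of 332, 338 and 434 on treated arrays, against 274, 228 and 252 on mock arrays, with no overlap (0.54, SE 0.14, adjusted p = 0.0321). RAB1B, which with RAB1A directs the step from the endoplasmic reticulum to the Golgi and activates the ARF exchange factor GBF1, had 684, 458 and 485 on treated arrays, against 615, 826 and 798 on mock arrays. Treated replicate 1 lay above mock replicate 1, and -0.47 (SE 0.16) did not pass (adjusted p = 0.0892). RAB1B passed in 1 of 14 alternative analyses, the one without treated replicate 1, the array that overlapped (-0.65, adjusted p = 0.0286). Over all choices of the array left out, its log2 difference ran from -0.65 to -0.36 and its adjusted p from 0.0286 to 0.26. RAB1A had 5122, 4846 and 4417 on treated and 5345, 4688 and 5205 on mock arrays, which overlapped (-0.08, SE 0.08). SAR1B, the GTPase that starts COPII coats and is needed to export chylomicron cargo, had 382, 381 and 327 on treated arrays, against 456, 437 and 472 on mock arrays. The groups were apart, and -0.33 (SE 0.11) did not pass (adjusted p = 0.0680). RAB2A, of the intermediate compartment, had 0.19 (SE 0.09), RAB6B, a Golgi isoform known from neurons, 0.21 (SE 0.15), RAB36 0.14 (SE 0.14) and RAB30 -0.28 (SE 0.21), none past the threshold.

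None of the 4 ARF and 3 ARL GTPases kept passed in limma's test, and none had an unadjusted p under 0.05. ARF3, ARF4, ARF5 and ARF6, which cover all 3 ARF classes, had log2 differences of -0.03 (SE 0.07), 0.01 (SE 0.08), -0.03 (SE 0.08) and 0.07 (SE 0.11), and the groups overlapped in each. ARF1 was not among the members, so its level is not covered here. ARF4, a class II ARF of the Golgi, had 5830, 5479 and 5244 on treated and 5953, 4958 and 5516 on mock arrays, and its sign turned with median centring and with quantile normalization. ARF3, a class I ARF, had means of 2095 ± 149 on treated and 2132 ± 68.0 on mock arrays (SD, n = 3 each). ARL1, which brings golgins to the trans-Golgi, had 0.02 (SE 0.12), ARL2, a partner of tubulin cofactors, 0.15 (SE 0.09), and ARL3, which unloads lipidated cargo in cilia, -0.08 (SE 0.11). Of the partner proteins, ARL2BP had -0.23 (SE 0.10, adjusted p = 0.150), ARL6IP5 0.14 (SE 0.08, means 2620 on treated and 2382 on mock arrays) and ARL6IP4 -0.05 (SE 0.14), with a second probe set of ARL6IP4 at -0.27 (SE 0.15).

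Of the 3 RABs of regulated secretion and 2 further RABs none passed in limma's test, or had an unadjusted p under 0.05. RAB3B, a vesicle RAB of secretory cells, had 846, 857 and 734 on treated and 910, 644 and 862 on mock arrays, which overlapped widely (0.02, SE 0.13). RAB27A, which docks secretory lysosomes and exosome-bearing compartments, had 286, 260 and 315 on treated arrays, against 332, 354 and 321 on mock arrays, apart but not past the threshold (-0.23, SE 0.12, adjusted p = 0.241). RAB26 had 0.17 (SE 0.16), RAB23, a brake on Hedgehog signalling, 0.14 (SE 0.09), and RAB40B, a RAB with a SOCS box, 0.26 (SE 0.13). The 7 members below the filter were RAB3A, RAB3D, RAB17, RAB27B, RAB28, RAB33A and RAB38, with signals of 17.7 to 124. The groups overlapped in each of these but RAB28, at 30.6, 20.3 and 27.6 on treated arrays, against 41.3, 42.3 and 63.2 on mock arrays. It was too dim to test.

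Groups did not overlap at 13 of the 38 members kept, while 33.9% of all probe sets tested showed no overlap. All treated arrays lay above all mock arrays in 7 members (17.4% of all probe sets) and below them in 6 (16.5%). RAB5C passed in all 14 alternative analyses (adjusted p = 0.00298 to 0.0230), RAB9A in 13, RAB13 in 11, RAB14 in 9 and RAB29 in 6. RAB9A was lost without treated replicate 2 (adjusted p = 0.0639), and RAB13 without mock replicate 1 (0.0548) or mock replicate 3 (0.0639). RAB14 was lost without treated replicate 1 (0.0921), treated replicate 2 (0.102) or mock replicate 1 (0.0678). RAB29 was lost without any 1 array but mock replicate 1 (0.0590 to 0.0822). The actin control, read near both ends of its message, had a 3′ over 5′ signal of 1.03, 1.07 and 0.999 on treated arrays and 0.995, 0.889 and 0.946 on mock arrays. The same measure for GAPDH was 0.805, 0.802 and 0.843 on treated and 0.779, 0.826 and 0.804 on mock arrays, which overlapped. The part of the actin difference in the results was not tested.

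All 12 listed fibroblast markers on the 12 h arrays passed the filter, with summed signals of 78645 to 93040 on treated and 80439 to 95674 on mock arrays. Single markers changed: LUM (lumican) rose 2.09-fold (adjusted p = 0.0034), PDGFRB rose 1.23-fold and S100A4 fell to 0.669 of mock. Of 11 markers of epithelial, endothelial, blood and muscle cells, KRT18, KRT19 and PECAM1 passed it, and KRT19, a keratin, had 98.1, 112 and 139 on treated arrays, against 277, 283 and 271 on mock arrays (-1.27, adjusted p = 0.00145). Those 11 summed to 4196 to 4529 on treated and 4110 to 4341 on mock arrays, most of it KRT18. The part of these marker differences in the results was not tested. Array medians were 157 to 165 at 12 h, and 143 on the treated and 155 on the mock array at 6 h.

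The coats and regulators that these GTPases work with showed a few calls at 12 h, to be read against the 13.2% called among all probe sets. Of 11 genes of the COPII coat and its assembly that were kept, 1 rose and 2 fell (27.3%). SEC24C, a cargo-binding subunit, had 408, 551 and 580 on treated arrays, against 889, 932 and 890 on mock arrays (-0.83, SE 0.13, adjusted p = 0.00305), and SEC23A, the subunit that triggers GTP hydrolysis by SAR1, had -0.37 (SE 0.09, adjusted p = 0.0281). SEC24B, another cargo-binding subunit, had 1137, 1285 and 1140 on treated arrays, against 991, 819 and 807 on mock arrays (0.45, SE 0.10, adjusted p = 0.0166). The SEC24 isoforms thus moved in both directions. Of 7 COPI subunits, ARCN1 fell (-0.28, SE 0.07, adjusted p = 0.0242), which is 14.3% and near the background, and the median was -0.20 against 0.01 for all probe sets. COPG1, COPE and COPB2 were also lower on all treated arrays (-0.20, -0.22 and -0.28) without passing, as 16.5% of all probe sets were, passing or not.

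The shares called in the other lists were 8.33% of ARF regulators, 4.76% of ARF and ARL effectors, 15.4% of RAB effectors and 12.1% of cargo receptors and SNAREs, near or below the background. Of 12 ARF exchange factors and GTPase-activating proteins, GBF1, which activates ARF at the cis-Golgi, fell, with 551, 502 and 587 on treated arrays, against 706, 722 and 728 on mock arrays (-0.40, SE 0.09, adjusted p = 0.0175). Of 21 ARF and ARL effectors, ARFIP2, or arfaptin 2, fell (-0.44, SE 0.07, adjusted p = 0.00401). Of 13 RAB effectors, OPTN, or optineurin, a partner of RAB8, rose, with 582, 627 and 622 on treated arrays, against 448, 362 and 293 on mock arrays (0.75, SE 0.14, adjusted p = 0.00877). KIF20A, a RAB6-binding kinesin that also works in mitosis, fell (-0.66, SE 0.12, adjusted p = 0.00609). Of 33 cargo receptors and SNAREs, KDELR3, a receptor that returns endoplasmic reticulum proteins, fell (-0.61, SE 0.09, adjusted p = 0.00305), as did the SNARE YKT6 (-0.41, SE 0.11). STX16 (0.40, SE 0.12) and ERGIC3 (0.24, SE 0.07) rose, just past the threshold (adjusted p = 0.0496 and 0.0461). None of 6 genes of RAB prenylation and recycling passed in limma's test, and 0 had an unadjusted p under 0.05. None of 8 RAB exchange factors and GTPase-activating proteins passed either, with 1 at an unadjusted p under 0.05.

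**Figure D4:**
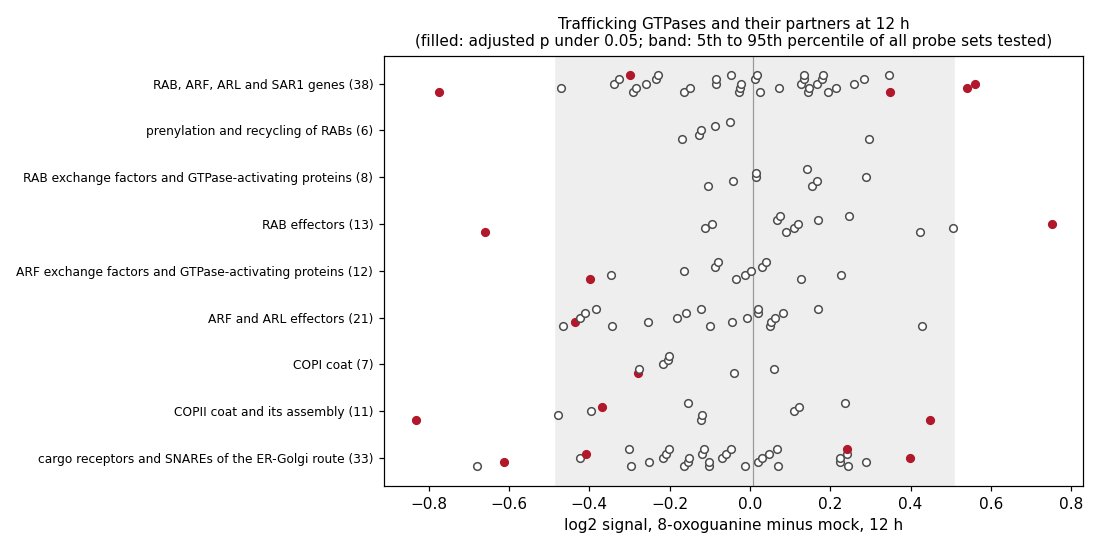
Difference of log2 signal between 8-oxoguanine and mock cells at 12 h (horizontal axis) for the members and for 8 lists of partner genes, with the number of genes kept in brackets. Each point is a gene, filled where the adjusted p was under 0.05, and the grey band spans the 5th to the 95th percentile of all 5248 probe sets (-0.48 to 0.51). Most members lie inside the band.

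At 6 h, with 1 array per treatment, no test was possible, and a ratio of 1.5-fold was used as the limit for probe sets at or above the 50th percentile (a signal of 148). Of 40 members kept, SAR1B passed this limit, with signals of 774 on the treated array, against 1234 on the mock array (log2 ratio -0.67), and none passed it upwards. Of all 11108 probe sets kept, 8.76% differed by 1.5-fold or more, 3.32% higher and 5.44% lower. Of the 40 members, 15 were lower at all, against 54.4% of all probe sets kept, but the sign of a ratio near 0 depends on the scaling. With median centring every log2 ratio lay about 0.12 higher, and the median over the kept probe sets was 0.08 in place of -0.03. SAR1B then had -0.56, inside the limit, and RAB1B (0.68) and RAB13 (0.64) passed it upwards. The split of all probe sets past the limit, 369 higher and 604 lower on the deposited scale, was then 601 higher and 365 lower. With quantile normalization SAR1B had -0.59 and RAB1B 0.63, both past it. Just inside the limit on the deposited scale were RAB1B (1512 on the treated, 1019 on the mock array, 0.57), RAB13 (2016 and 1399, 0.53) and RAB33B, a Golgi RAB tied to autophagosome formation (161 and 240, -0.58).

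Of the COPII genes that work with SAR1, 4 of 14 kept were 1.5-fold or more lower at 6 h and none as much higher. Of all probe sets kept, 5.44% were as much lower and 3.32% higher. SEC23IP had 610 on the treated array, against 1052 on the mock array (-0.79), SEC23B 1207 against 2054 (-0.77), SEC24D 1098 against 1859 (-0.76) and SEC24A 538 against 813 (-0.59). SEC24A lay inside the limit with median centring (-0.48) and quantile normalization (-0.51), while SEC23A, at -0.56 on the deposited scale, passed it with quantile normalization (-0.62). Other probe sets of these genes disagreed in part. The kept ones had 0.04 for SEC23IP, 0.11 for SEC23B and -0.14 for SEC24A. At 12 h the probe sets first named had -0.15 for SEC23IP, -0.12 for SEC23B and 0.12 for SEC24D, with overlapping groups. SEC23A was called lower at 12 h, as given above, but on another probe set. That probe set had -0.36 at 6 h (-0.28 with quantile normalization), inside the limit. SAR1A, the other COPII GTPase, had 1992 on the treated and 1953 on the mock array (0.03), and its 2 other probe sets had 0.04 and -0.11.

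The 6 h ratios of the brightest members depended on the scaling. ARF4 had 7799 on the treated array, against 6327 on the mock array (0.30), which became -0.16 with quantile normalization. RAB1A had 7582 against 5627 (0.43), which became 0.04. Among probe sets that reached 8000 on either array, of which there were 328, the middle log2 ratio was 0.67 (0.01 with quantile normalization). The top signal was 22762 for treated cells and 10699 for mock cells. RAB11A (3173 and 2776, 0.19), ARF6 (2859 and 2387, 0.26), ARL6IP5 (2483 and 2424, 0.03) and RAB2A (2072 and 2515, -0.28) were the next brightest. Fibroblast markers, which are bright, summed to 137568 on the treated and 77480 on the mock array.

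Different probe sets of a gene were compared at 6 h. All were read on the same pair of arrays, so their spread gives no error between arrays or cultures. Of 22 members with several probe sets kept, 14 had log2 ratios of both signs, and the range between a gene's probe sets had a median of 0.28. RAB7A, which matures late endosomes and joins them to lysosomes, had 2036 on the treated and 1908 on the mock array by the brightest probe set (0.09), and 1281 against 2044 by another (-0.67). RAB11A had 0.19 and -0.77, RAB1A had 0.43, -0.34 and -0.45, and ARF6 had 0.26, 0.01 and -0.63. RAB5C agreed between its probe sets, at 0.09 and 0.10. The other members with the highest ratios, ARF5 (0.44), ARL6IP4 (0.44, second probe set 0.17) and RAB40B (0.36), and those with the lowest, RAB29 (-0.41, second probe set 0.02) and RAB22A (-0.38, second probe set -0.08), lay within the limit. The 16 members below the filter had signals of 2.68 to 155.

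Of the 34 members kept at both times, 15 had the same sign of log2 difference and 19 the opposite sign, each time against its own mock. No such share was computed over all probe sets, so the split is no result about the members. RAB13 (0.53 at 6 h and 0.35 at 12 h), RAB9A (0.22 and 0.56) and SAR1B (-0.67 and -0.33) kept their sign. RAB5C (0.09 and -0.77), RAB14 (0.10 and -0.30), RAB29 (-0.41 and 0.54) and RAB1B (0.57 and -0.47) did not. The array type and the replication changed with the time, and no test between the times was made.

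**Figure D5:**
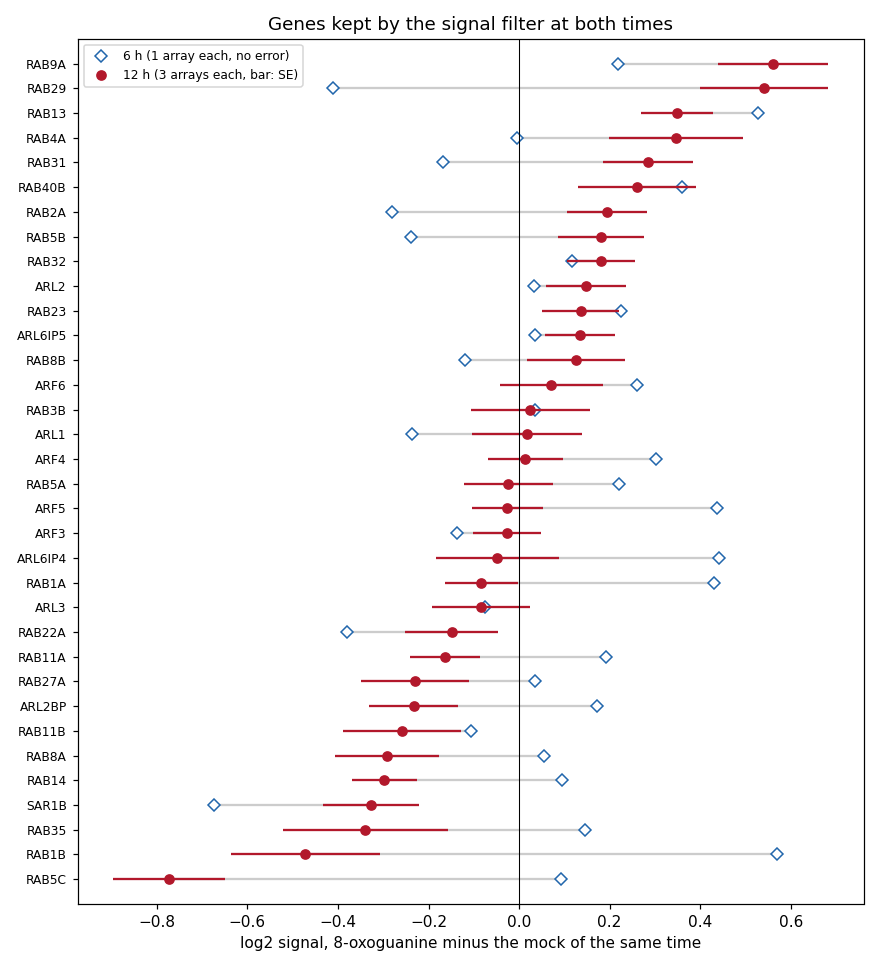
Log2 signal of 8-oxoguanine minus mock cells (horizontal axis) at 6 h (open diamonds, 1 array each and no error) and at 12 h (filled circles, 3 arrays each, bars SE) for the 34 members kept at both times, ordered by the 12 h value. RAB13 and RAB9A lie to the right of 0 and SAR1B to the left of 0 at both times, while RAB5C, RAB14, RAB29 and RAB1B change sides.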

How the data were processed

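Total RNA of MRC5 cells was labelled with biotin and read on single-colour arrays. Groups follow each sample's treatment and time. Although the protocol text gives 6 h throughout, the time labels of 6 h and 12 h were used. The authors deposited 1 linear intensity per probe set, computed by MAS5, per the submitters' processing notes, in a version not given in the sources used here. Every array had a trimmed mean of 500.1 to 500.5. Precision is limited by how few arrays there are.

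Log2 of the intensity was taken with no further scaling and control probe sets left out. The 12 h test was limma's (version 3.58.1, R 4.3.3, with lmFit, eBayes with an intensity trend, two-sided) over 5248 of 8746 probe sets, with Benjamini-Hochberg adjustment over all of them. Adjusted p-values of genes come from it unless an alternative is named. At 6 h, 11108 of 22215 probe sets were kept. The brightest probe set stood for a gene. The test was checked on simulated data. Symbols came from the platform annotation, and all 56 matched RefSeq without change. The naming rule took members past the threshold, the 5 highest and 5 lowest kept by the filter, close relatives of these, the brightest 6 at each time, and at most 4 genes past the threshold of a partner list. Values of other members, and of COPG1, COPE, COPB2 and the 6 h partners at other probe sets, were added after they were seen. Members and lists were chosen with earlier results of these data known. The related pairs and the motifs were chosen after the values were seen. The alternatives were median centring, quantile normalization, other filters, a constant added before log2, no trend, the replicate number as a block, averaging the probe sets of a gene, and leaving out each array.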

Additional observations from a re-analysis of the deposited data

Results flagged for a closer look

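Of the 13 kept members whose 12 h groups did not overlap, 7 had the opposite sign on the single pair of 6 h arrays, on the deposited scale and with quantile normalization. The share of opposite signs over all probe sets was not computed, so this count is no result about the members as a group. In 6 of them the sign was also opposite on the probe set that stood for the gene at 12 h (deposited scale), and RAB35 (0.15 at 6 h and -0.34 at 12 h) had -0.04 there. RAB29 had a log2 difference of -0.41 at 6 h and 0.54 at 12 h, RAB2A -0.28 and 0.19, and RAB31 -0.17 and 0.28. RAB5C had 0.094 at 6 h and -0.77 at 12 h, RAB14 0.10 and -0.30, and RAB27A 0.034 and -0.23. No test of the time difference was made. At 6 h other kept probe sets of the same gene reached 0.02 for RAB29, 0.57 for RAB2A, 0.15 for RAB31, -0.20 for RAB14 and -0.22 for RAB27A, while the second probe set of RAB5C had 0.10.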

How the results depend on the processing

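At 12 h the count of members past the threshold was 5 with median centring, quantile normalization, the 60th percentile filter and the added constant, and these were the same 5 genes each time. It was 4 with no filter, 6 with probe sets averaged by gene (RAB4A added, 0.50, adjusted p = 0.0472), 2 with no intensity trend (RAB5C and RAB9A) and 3 with the replicate block (RAB5C, RAB9A and RAB13), and 2 to 4 when 1 array was left out. The lowest count, 2, came without treated replicate 2 (RAB5C and RAB13), and 3 without mock replicate 3 (RAB5C, RAB9A and RAB14). RAB29 was lost with no filter (adjusted p = 0.0607), no trend (0.0525) and the block (0.0540), RAB14 with no trend (0.0752) and the block (0.0586), and RAB13 with no trend (0.0671). All probe sets past the threshold numbered 513 with the block in place of 695, and 371 to 652 without 1 array, with 371 without treated replicate 1, 383 without treated replicate 2 and 450 without mock replicate 3. The deviations of same-numbered extracts had correlations of 0.08, -0.15 and -0.05 over 5248 probe sets. Those of unlike-numbered extracts ran from -0.18 to 0.20. Whether the replicate numbers pair the samples was not tested. Signs turned for ARF4 with median centring (-0.0020) and quantile normalization (-0.012) and for RAB5A with quantile normalization (0.0042). Leaving out 1 array turned the sign of 7 members near 0, with ranges of -0.076 to 0.027 for ARF3, -0.056 to 0.076 for ARF4, -0.078 to 0.00098 for ARF5, -0.074 to 0.14 for ARL1, -0.18 to 0.049 for ARL6IP4, -0.13 to 0.12 for RAB3B and -0.12 to 0.038 for RAB5A. At 6 h the probe sets past 1.5-fold split as 369 higher and 604 lower on the deposited scale, as 601 and 365 with median centring, and as 236 and 428 with quantile normalization. The total of 973 became 6199 with no filter, 509 with the 70th percentile filter and, counted by gene, 414 with probe sets averaged. Members past the limit numbered 2 with median centring (RAB1B and RAB13) and 2 with quantile normalization (RAB1B and SAR1B), and 5 with no filter, the added 4 being below the filter. Read on the probe set used at 12 h, a choice made after seeing the data, ARF6 had -0.63 and RAB35 -0.04 at 6 h. The filters changed how many probe sets were tested, and averaging by gene changed the unit tested. Leaving out an array kept the same probe sets with 1 array fewer. The cause of these changes was not tested.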

Other observations

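At 6 h, 2 of 35 RAB effectors kept were 1.5-fold or more lower and 0 as much higher. Of all probe sets kept, 5.44% were as much lower and 3.32% higher. EEA1, the tether of early endosomes, had 152 on the treated array, against 262 on the mock array (log2 ratio -0.79), and a second, dim probe set had -1.96. APPL1, a RAB5 effector on a separate set of early endosomes, had 147 against 279 (-0.93). At 12 h the same probe sets had 0.12 (SE 0.23) for EEA1 and 0.51 (SE 0.26) for APPL1, neither past the threshold. Of 24 ARF regulators kept at 6 h, 3 were 1.5-fold or more lower and 0 as much higher. RP2, which stimulates GTP hydrolysis by ARL3, had 149 against 452 (-1.60), while ARL3 itself had 629 against 663 (-0.07). The treated signal of RP2 was near the 6 h filter of 148. At 12 h the same probe set of RP2 was below the filter. It had 41.9, 42.7 and 37.1 on treated and 49.6, 46.4 and 41.6 on mock arrays, which overlapped. Of 35 RAB regulators kept at 6 h, 3 were as much higher and 3 as much lower. Among them SGSM3 (0.82, with 0.49 and -0.08 on its other probe sets) and TRAPPC12 (0.78) were higher and TBC1D4 (-0.81) and DENND1A (-0.70) lower. The 6 h values are ratios of 1 array to 1 array, with no replicate check.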
